A study of Mus musculus with 6 samples.

Results

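Smooth muscle cells shorten through a small set of proteins that form and regulate their actin and myosin filaments, and 10 genes for such proteins were followed here in fibroblasts of the mouse mammary gland. The genes were listed by name, with earlier results of these data known: the actins Acta2 and Actg2, the smooth muscle myosin heavy chain Myh11 and the regulatory light chain Myl9, the tropomyosins Tpm1 and Tpm2, caldesmon (Cald1), calponin (Cnn1), transgelin (Tagln) and leiomodin (Lmod1). All 10 were found among the 27179 genes of the count table. Bulk RNA-seq had been performed on CD34hi and CD34lo fibroblasts from pubertal mammary glands of FVB/N mice (FVB/NJ in the study's methods). The mice were at 6 weeks of age, without transgene or treatment. Cells negative for the lineage markers CD31, CD45 and TER-119 and for CD24, and positive for Pdgfrα, were sorted by their surface CD34. Each library came from a pool of 2 mice, and both populations were taken from each of 3 pools, which gave 3 libraries per population and 6 in all.

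In smooth muscle, myosin pulls on actin filaments once its regulatory light chain has been phosphorylated by myosin light chain kinase, and myosin phosphatase, which the kinases Rock1 and Rock2 restrain, reverses this. Tropomyosin lies along the actin filament, and caldesmon and calponin bind it and restrain the myosin. Several of these genes are also switched on in pericytes, in myoepithelial cells, which squeeze milk from the gland, and in fibroblasts that become contractile, and Acta2 is the usual marker of myofibroblasts. Many of them are controlled by serum response factor (Srf), which binds a short element called the CArG box together with the coactivators myocardin (Myocd), Mrtfa and Mrtfb.

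The 2 members whose promoter window held a CArG-type element are shown, since one was called and the other was not: Acta2 was 10.3-fold higher in CD34lo fibroblasts, and Myl9 did not pass the test. The windows searched were the 250 bases before the start site in the RefSeq promoter table (GRCm38.p6), and sequences are given 5′ to 3′. For Myl9 the part before the first annotated exon is shown (plus strand, chr2:156775214-156775419), and for Acta2 the 30 bases around each element (minus strand, chr19:34255438-34255467 and chr19:34255388-34255417). Capitals mark matches to the CArG box or to the CArG box with 1 of its 6 middle letters replaced by G or C, a pattern whose class of letters reads the same on both strands.
Acta2 first element: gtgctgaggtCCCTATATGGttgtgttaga
Acta2 second element: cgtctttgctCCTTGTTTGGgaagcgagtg
Myl9: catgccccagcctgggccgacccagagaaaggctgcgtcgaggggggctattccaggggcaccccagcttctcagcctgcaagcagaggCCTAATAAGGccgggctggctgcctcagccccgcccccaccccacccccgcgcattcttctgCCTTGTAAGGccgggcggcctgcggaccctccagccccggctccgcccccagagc

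The Myl9 window held 1 CArG box, CCTAATAAGG, which began 161 bases before the start, and 1 element of the form with a changed middle letter, CCTTGTAAGG, 99 bases before the start. The Acta2 window held 2 elements of the second kind, CCCTATATGG at 84 and CCTTGTTTGG at 34 bases before the start. Start sites of Acta2 differ between annotations: both elements precede the start in the promoter table and in the count table but lie inside the first exon of GENCODE M21 (chr19:34255290-34255590). The windows of Cnn1, Tpm1, Tpm2, Cald1 and Lmod1 held neither form, so that 2 of the 7 members with a window had a match. Of all 32851 mouse promoter windows of this length, 1.47% held the CArG box, 7.24% the form with 1 changed letter and 8.59% either form. These shares are per window, while a gene with several windows was counted if any of them matched. Matches describe letters in these windows and were not measured as binding sites. Actg2, Tagln and Myh11 had no entry in the promoter table.

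Most of the contractile genes were higher in CD34lo fibroblasts. Of the 10 genes, 8 were called higher in CD34lo, 0 were called higher in CD34hi, and Myl9 and Cald1 did not pass the test (edgeR quasi-likelihood test, Benjamini-Hochberg adjusted over 15219 genes, threshold 0.05). Across all tested genes, 35.6% were called, 18.7% as higher in CD34lo and 16.9% as higher in CD34hi. The median log2 fold change (CD34hi minus CD34lo) was −2.66 over the 10 genes and −0.0064 over all tested genes. In 8 of the 10 genes every CD34lo library lay above every CD34hi library, and the 2 populations did not overlap, in either direction, for 50.1% of all tested genes. The summed level of the 10 genes was 544 to 721 CPM (counts scaled to library size, with TMM factors) in CD34lo and 384 to 420 in CD34hi. Fewer cells that express a gene and less of its RNA per cell cannot be told apart in bulk samples.

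**Figure D1:**
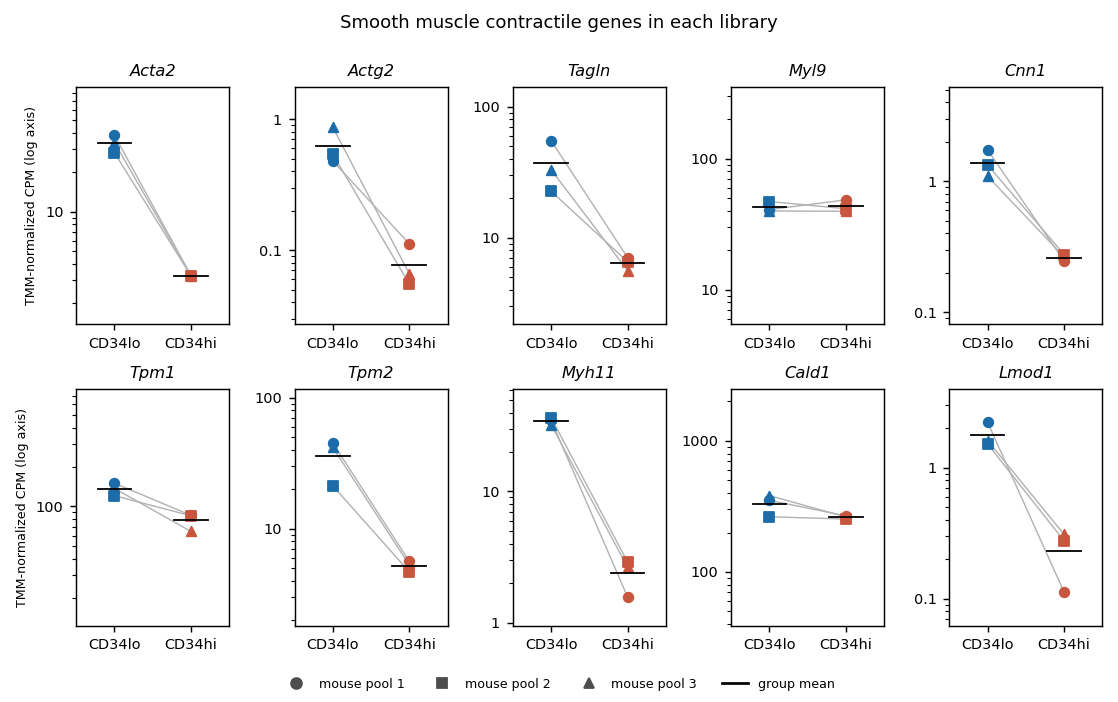
TMM-normalized CPM of each smooth muscle contractile gene (log axis, with the same fold range in every panel) in the 3 CD34lo and 3 CD34hi libraries; symbols mark mouse pools, grey lines join libraries of 1 pool and black bars are means. In 8 panels every CD34lo point lies above every CD34hi point, while the points of Myl9 overlap and CD34lo pool 2 of Cald1 lies among the CD34hi points.

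The libraries held between 28764779 and 52402410 counts, and 3 counts corresponded to between 0.0553 and 0.108 CPM. Cd34 itself was measured at 634 ± 158 CPM in CD34lo and 2571 ± 75.2 CPM in CD34hi (SD, n = 3 each), a log2 fold change of 2.02 (SE 0.20, adjusted p = 9.66e-05, edgeR), in the direction of the sort, and the sort marker Pdgfra at 1256 ± 197 and 754 ± 149 CPM. Replicates of a population were separate libraries: for every pair of them chi-square over genes was at least 23.9 times its degrees of freedom. All errors given as ± are SD over the 3 libraries of a population.

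The actin filament of smooth muscle was represented by 2 members. Acta2 (chr19:34241091-34255336, minus strand), which encodes smooth muscle α-actin, was at 38.2, 28.1 and 33.6 CPM in the CD34lo libraries of pools 1, 2 and 3 and at 3.24, 3.23 and 3.24 CPM in the CD34hi libraries. The populations were far apart. The CD34hi values came from 145, 117 and 147 counts and lay closer together than the counting error of such counts. Their small SD is therefore not a measure of reproducibility. The mean was 33.3 ± 5.04 CPM in CD34lo and 3.24 ± 0.0076 CPM in CD34hi, a 10.3-fold higher level in CD34lo, with a fitted log2 fold change of −3.36 (SE 0.16, adjusted p = 2.56e-06, edgeR). Within the pools the log2 difference of the CD34hi library from the CD34lo library was −3.54, −3.10 and −3.35.

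Actg2 (chr6:83512909-83536251, minus strand), the γ-actin of visceral smooth muscle, was the least counted member. It had 26, 15 and 27 counts in CD34lo and 5, 2 and 3 counts in CD34hi, equal to 0.480, 0.539 and 0.868 CPM against 0.112, 0.0552 and 0.0662 CPM. CD34lo was higher in every pool, although 2 of the 3 CD34hi libraries held no more than 3 counts. The fitted log2 fold change was −2.94 (SE 0.53, adjusted p = 0.0028, edgeR) with a 95% interval of −4.15 to −1.72.

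The 2 myosin members went separate ways. Myh11 (chr16:14194527-14291408, minus strand), the heavy chain that defines smooth muscle myosin, was at 35.0, 36.6 and 32.4 CPM in CD34lo and at 1.57, 2.90 and 2.65 CPM in CD34hi. Its means of 34.7 ± 2.14 and 2.37 ± 0.708 CPM stood 14.6-fold apart, the largest ratio among the 10 genes. The log2 fold change was −3.88 (SE 0.22, adjusted p = 6.90e-06, edgeR). The largest within-pool difference was that of pool 1, at −4.44, against −3.64 and −3.59 in pools 2 and 3.

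Myl9 (chr2:156775464-156781657, plus strand), a regulatory light chain of smooth muscle and nonmuscle myosin, was at 40.9, 47.1 and 39.9 CPM in CD34lo and at 48.5, 41.6 and 39.7 CPM in CD34hi. The libraries of both populations covered the same range. The log2 fold change was 0.020 (SE 0.12, adjusted p = 0.917, edgeR), and its 95% interval ran from −0.26 to 0.30. The light chain thus lacked a detectable difference in libraries where its heavy chain partner Myh11 differed in each pool.

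Both tropomyosins, which lie along the actin filament, were higher in CD34lo, but by unequal amounts. Tpm2 (chr4:43514712-43523388, minus strand) was at 45.2, 21.3 and 41.7 CPM in CD34lo and at 5.63, 4.69 and 5.29 CPM in CD34hi, a 6.92-fold ratio of the means. Its log2 fold change was −2.79 (SE 0.27, adjusted p = 9.46e-05, edgeR). Pool 2 gave the lowest CD34lo value, which remained above every CD34hi value. Tpm1 (chr9:67022593-67049213, minus strand) was at 150, 121 and 137 CPM in CD34lo and at 85.5, 84.8 and 64.4 CPM in CD34hi, a 1.74-fold ratio. Its log2 fold change was −0.80 (SE 0.15, adjusted p = 0.0030, edgeR). The 95% intervals of the 2 changes, −3.42 to −2.17 for Tpm2 and −1.13 to −0.46 for Tpm1, did not meet, and the difference between the genes was not tested itself. Counts are summed over all transcripts of a gene, so muscle and nonmuscle isoforms of Tpm1, and of Cald1, were not separated.

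Among the proteins that bind along the thin filament, Tagln and Cnn1 were higher in CD34lo and Cald1 was not called. Tagln (chr9:45929628-45936058, minus strand), an actin-binding protein used as an early marker of smooth muscle, was at 54.9, 22.6 and 33.0 CPM in CD34lo and at 7.04, 6.54 and 5.60 CPM in CD34hi. The CD34lo libraries spread widely around their mean of 36.8 ± 16.5 CPM, and the lowest of them lay above all CD34hi libraries. The log2 fold change was −2.53 (SE 0.30, adjusted p = 0.00028, edgeR). Tagln overlaps Pcsk7 on the opposite strand by 96 bases; the strand setting of the counting is not given in the sources used here, and Pcsk7 held 3326 counts in CD34lo and 2840 in CD34hi, so that reads of the overlap cannot be assigned to a strand.

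Cnn1 (chr9:22099253-22109221, plus strand), calponin of differentiated smooth muscle, was low in both populations, with 94, 37 and 34 counts in CD34lo and 11, 10 and 12 counts in CD34hi. Its level was 1.39 ± 0.324 CPM in CD34lo and 0.262 ± 0.0152 CPM in CD34hi, 5.29-fold apart. The log2 fold change was −2.40 (SE 0.37, adjusted p = 0.0011, edgeR). Lmod1 (chr1:135324813-135368065, plus strand), which starts new actin filaments in smooth muscle, was of similar abundance, with 120, 42 and 50 counts in CD34lo and 5, 10 and 14 counts in CD34hi. It was 7.65-fold higher in CD34lo, with a log2 fold change of −2.94 (SE 0.43, adjusted p = 0.00093, edgeR). All 3 pools had the same direction for both genes.

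Cald1 (chr6:34709444-34775469, plus strand), caldesmon, was the most abundant member and stood at 352, 264 and 383 CPM in CD34lo and at 268, 253 and 263 CPM in CD34hi. The CD34lo library of pool 2 lay within the CD34hi range, while the other two lay above it. The log2 fold change was −0.35 (SE 0.15, adjusted p = 0.110, edgeR), with a 95% interval of −0.70 to 0.00056. Without CD34lo replicate 2 Cald1 was called, with a log2 fold change of −0.49 (adjusted p = 0.0171, edgeR), but without both libraries of pool 2 it was not (−0.47, adjusted p = 0.102).

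Members also differed in how evenly the CD34lo libraries expressed them. The CD34lo library of pool 2 was the lowest of its population for 6 of the 10 genes (Acta2, Tagln, Tpm1, Tpm2, Cald1 and Lmod1), that of pool 3 for 3 and that of pool 1 for 1. In Myh11 the order was different, and pool 2 was the highest. In CD34hi, pools 1, 2 and 3 were the lowest for 3, 4 and 3 genes.

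Per base of gene length, the members spanned a wide range of levels within each population. In CD34lo, Cald1 was highest at 82.5 ± 15.3 RPKM, followed by Tpm1 at 41.5 ± 4.51 and Myl9 at 39.4 ± 3.60, which overlapped between libraries. Tagln (23.2 ± 10.4 RPKM), Acta2 (18.7 ± 2.83) and Tpm2 (17.2 ± 6.16) came next and could not be ordered beyond their spread. Myh11 followed at 5.23 ± 0.323 RPKM, and Cnn1, Actg2 and Lmod1 were at 0.697 ± 0.163, 0.478 ± 0.159 and 0.451 ± 0.0966 RPKM, with overlapping neighbours. In CD34hi, Cald1 (64.8 ± 1.89 RPKM), Myl9 (39.9 ± 4.27) and Tpm1 (23.9 ± 3.65) kept the upper places. The levels of Tagln (4.03 ± 0.461 RPKM), Tpm2 (2.48 ± 0.228), Acta2 (1.82 ± 0.0043) and Myh11 (0.357 ± 0.107) were lower, and Cnn1, Actg2 and Lmod1 were at 0.132, 0.0591 and 0.0589 RPKM. The members that did not pass the test, or differed least, were thus the 3 most abundant in both populations.

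Most members belong to families with nonmuscle relatives, which were compared on the same scale. Acta2 accounted for 2.53 ± 0.425% of the summed RPKM of 6 actin genes in CD34lo and for 0.349 ± 0.0874% in CD34hi, and the nonmuscle β-actin gene Actb for 65.7 ± 1.53% and 62.7 ± 1.48%. Myh11 accounted for 7.54 ± 0.914% of 4 myosin heavy chain genes in CD34lo and 0.580 ± 0.155% in CD34hi. The nonmuscle heavy chains exchanged rank, with Myh9 at 62.9 ± 3.73% and 39.3 ± 3.31% and Myh10 at 29.1 ± 3.49% and 59.2 ± 3.34%. Smooth muscle isoforms were a minority of the actin and myosin transcripts in both populations. Tagln made up 19.5 ± 5.52% of transgelin RPKM in CD34lo and 3.88 ± 0.288% in CD34hi, and Tpm2 5.10 ± 1.11% and 1.16 ± 0.260% of tropomyosin RPKM. The shares of Tpm1 were 12.8 ± 1.26% and 10.9 ± 0.509%. Cnn1 reached 0.484 ± 0.121% and 0.135 ± 0.0211% of calponin RPKM. Myl9 held 21.5 ± 1.88% and 22.2 ± 0.919% of the 3 regulatory light chains, while Myl12a moved from 36.9 ± 2.27% to 23.4 ± 1.50% and Myl12b from 41.6 ± 0.513% to 54.3 ± 1.76%. These shares are descriptions without a test, and the relatives named with them, other than Myh9, were chosen after their values were seen.

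**Figure D2:**
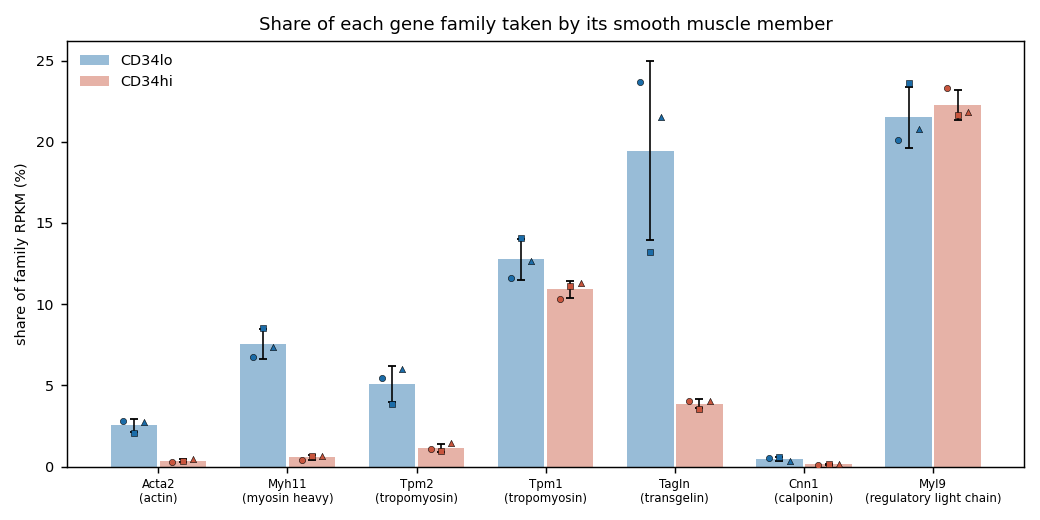
Share (%) of the summed RPKM of a gene family taken by its smooth muscle member in CD34lo (blue) and CD34hi (red); bars are means from 0, error bars SD and points the 3 libraries. The bars of Acta2, Myh11, Tpm2, Tagln and Cnn1 are lower in CD34hi, and those of Myl9 are 21.5% and 22.2%.

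Of 21 paralogs, 17 were tested and 8 were called, 5 as higher in CD34lo (all tested genes: 18.7%) and 3 as higher in CD34hi (16.9%). The paralogs of the members had a median log2 fold change of −0.41, against −0.0064 over all tested genes. With the mouse pool as a block 11 were called, 8 of them higher in CD34lo; Tpm4, Myl6 and Tmod2 were the additional calls (adjusted p = 0.0281, 0.0303 and 0.0349, edgeR). Actc1, Tagln3, Lmod2 and Lmod3 were too low to test. The largest change was in Tmod1, a tropomodulin that caps the slow-growing end of actin filaments, at 2.01 ± 1.11 CPM in CD34lo and 11.7 ± 7.60 CPM in CD34hi (log2 fold change 2.57, SE 0.55, adjusted p = 0.0063, edgeR). Its relative Tmod3 moved the opposite way, from 348 ± 139 CPM in CD34lo to 148 ± 12.2 CPM in CD34hi (−1.23, SE 0.29, adjusted p = 0.0096). Myh9, the heavy chain of nonmuscle myosin IIA, was at 325 ± 52.3 and 177 ± 16.9 CPM (−0.87, SE 0.15, adjusted p = 0.0021). The count of called paralogs was 4 without pool 1 and 5 without pool 3, without CD34lo replicate 3 or without CD34hi replicate 2.

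Of 16 other genes enriched in smooth muscle, all were tested, 12 were called higher in CD34lo and 1, Mustn1, higher in CD34hi. Over all tested genes these shares were 18.7% and 16.9%. The median log2 fold change of the 16 was −1.51, against −0.0064 over all tested genes. Kcnmb1, a subunit of the calcium-activated potassium channel of smooth muscle, had 121, 25 and 64 counts in CD34lo and 0 in each CD34hi library. At 1.73 ± 0.724 CPM in CD34lo it was at least 20.9-fold higher than the 3-count floor of a CD34hi library. Cacna1c, the pore of the L-type calcium channel through which smooth muscle contraction is triggered, was at 88.8 ± 15.3 CPM in CD34lo and 3.45 ± 0.492 CPM in CD34hi (log2 fold change −4.69, SE 0.19, adjusted p = 1.66e-06, edgeR). Casq2, a calcium store protein, had 52, 18 and 19 counts against 1, 3 and 0 (−4.41, SE 0.74, adjusted p = 0.0019). Mustn1, a small nuclear protein of the musculoskeletal system, was at 4.83 ± 0.824 CPM in CD34lo and 63.1 ± 3.45 CPM in CD34hi (3.72, SE 0.16, adjusted p = 1.92e-06) and is named here after its values were seen. Hspb6, Map3k7cl and Ppp1r12b did not pass the test.

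**Figure D3:**
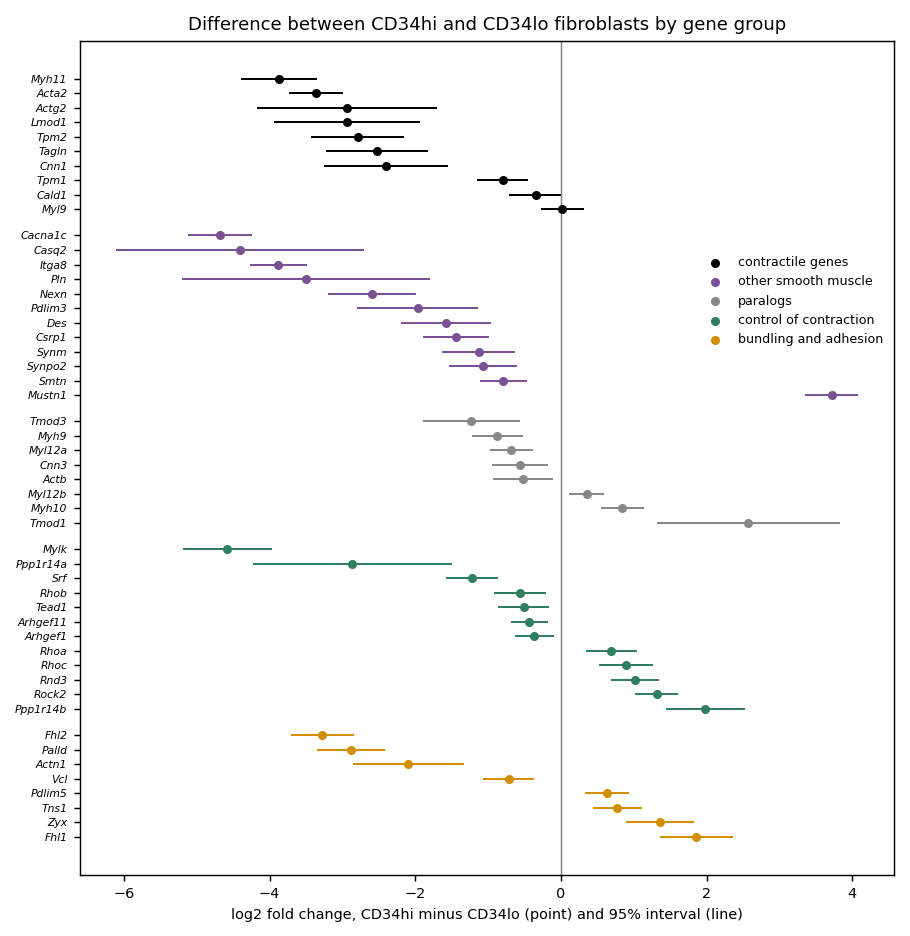
Fitted log2 fold change, CD34hi minus CD34lo, with its 95% interval, for the 10 contractile genes and for the called genes of 4 related groups (Kcnmb1, with 0 counts in CD34hi, is left out). The contractile and other smooth muscle genes lie mostly left of 0, while the other three groups have called genes on both sides.

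The genes that control contraction were split between the populations. Of 20 such genes 19 were tested and 12 called, 7 as higher in CD34lo (all tested genes: 18.7%) and 5 as higher in CD34hi (16.9%). Their median log2 fold change was 0.011, and without pool 1 the count of calls was 7. Mylk, myosin light chain kinase, which phosphorylates Myl9 and its relatives, was at 62.4, 113 and 82.5 CPM in CD34lo and at 2.82, 4.25 and 3.73 CPM in CD34hi. It was 23.9-fold higher in CD34lo (log2 fold change −4.58, SE 0.26, adjusted p = 6.71e-06, edgeR), a larger ratio than that of any of the 10 contractile genes. Its substrate Myl9, as given above, did not pass the test.

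Inhibitors of myosin phosphatase moved in both directions. Ppp1r14a, the inhibitor of smooth muscle also called CPI-17, was at 1.48 ± 0.726 CPM in CD34lo and 0.200 ± 0.125 CPM in CD34hi (log2 fold change −2.86, SE 0.59, adjusted p = 0.0055, edgeR). Its relative Ppp1r14b was at 14.2 ± 3.84 and 56.4 ± 13.2 CPM (1.98, SE 0.23, adjusted p = 0.00026). Rhoa, the small GTPase that activates Rock1 and Rock2, was at 292 ± 23.6 CPM in CD34lo and 471 ± 68.4 CPM in CD34hi (0.69, SE 0.15, adjusted p = 0.0064). Of the 2 kinases, Rock2 was at 169 ± 2.39 and 421 ± 42.4 CPM (1.31, SE 0.12, adjusted p = 7.62e-05), whereas Rock1 was at 109.9 ± 6.09 and 111 ± 2.14 CPM and was not called (0.011, 95% interval −0.22 to 0.25).

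The transcription factor Srf was at 122, 136 and 95.6 CPM in CD34lo and at 52.7, 54.0 and 45.2 CPM in CD34hi (log2 fold change −1.22, SE 0.15, adjusted p = 0.00035, edgeR). Its CD34lo values all lay above its CD34hi values. Of its coactivators, Mrtfa was at 31.0 ± 5.67 and 33.8 ± 0.644 CPM (0.12, 95% interval −0.21 to 0.46) and Mrtfb at 46.8 ± 4.64 and 58.4 ± 6.03 CPM (0.32, 95% interval 0.036 to 0.61, adjusted p = 0.0771), and neither was called. Myocd, the coactivator restricted to cardiac and smooth muscle, had 11, 8 and 14 counts in CD34lo and 3, 5 and 2 in CD34hi and was too low to test. Among the 17 control genes with a promoter window, 2 held the CArG box, one of them Srf itself. It was also held by 5 of 18 paralogs, 3 of 13 bundling and adhesion genes and 0 of 14 other smooth muscle genes with a window. Of all mouse promoter windows 1.47% held the CArG box, a share per window, while genes were counted if any of their windows matched.

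**Figure D4:**
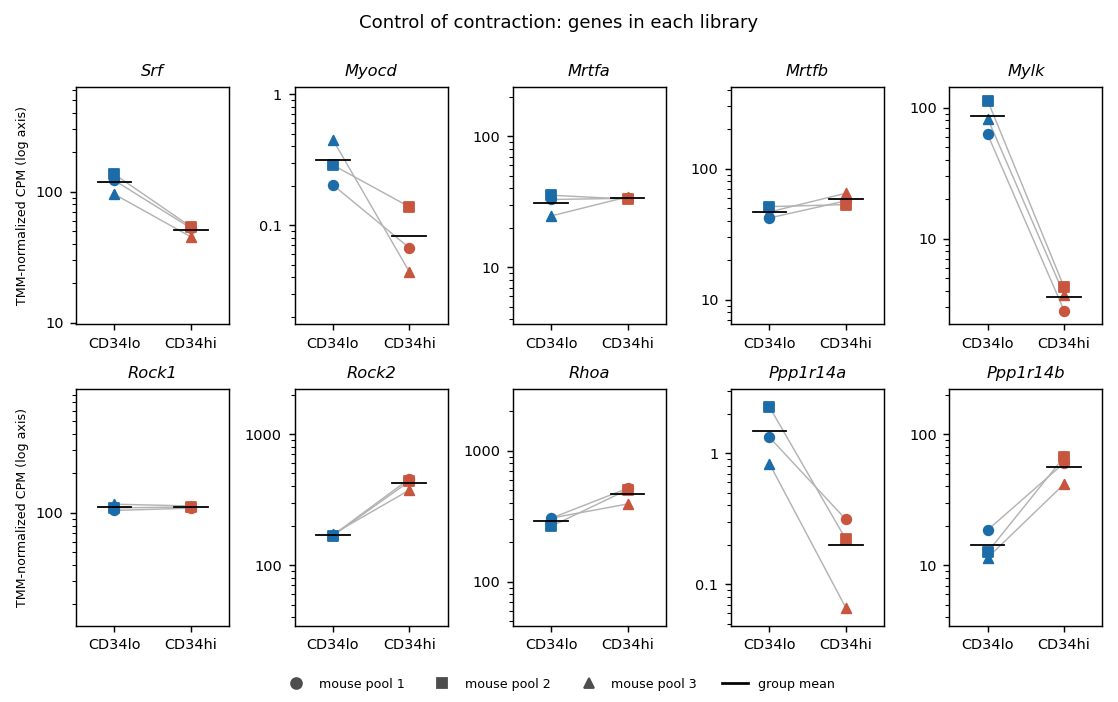
TMM-normalized CPM (log axis, same fold range in every panel) of 10 genes that control contraction in the CD34lo and CD34hi libraries; symbols mark mouse pools and black bars are means. Mylk, Srf and Ppp1r14a are higher in CD34lo, Rock2, Rhoa and Ppp1r14b are higher in CD34hi, and Myocd was below the level tested.

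Genes for actin bundling and adhesion were also split, with 4 of 14 called higher in CD34lo and 4 called higher in CD34hi. Over all tested genes these shares were 18.7% and 16.9%. The median log2 fold change of the 14 was −0.064. Fhl2, an adaptor between adhesions and the nucleus, was at 33.1, 35.2 and 30.8 CPM in CD34lo and 4.07, 2.57 and 3.53 CPM in CD34hi (log2 fold change −3.28, SE 0.18, adjusted p = 6.50e-06, edgeR). Palld, palladin of actin bundles, was at 186 ± 44.5 and 25.1 ± 2.81 CPM (−2.89, SE 0.20, adjusted p = 1.56e-05). Actn1, α-actinin that crosslinks actin, was at 38.9 ± 2.92 and 9.15 ± 5.08 CPM (−2.10, SE 0.33, adjusted p = 0.0013). The 4 genes called higher in CD34hi, named after their values were seen, were Fhl1 (83.1 ± 25.1 and 301 ± 4.57 CPM), the adhesion protein Zyx (129.6 ± 36.4 and 334 ± 35.1 CPM), Tns1 (203 ± 32.5 and 346 ± 13.3 CPM) and Pdlim5 (59.2 ± 8.79 and 91.9 ± 3.50 CPM).

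Markers of other cells that express contractile genes moved with the contractile genes in part. Of all tested genes, 18.7% were called higher in CD34lo and 16.9% higher in CD34hi, which also stands beside the marker lists below. Of 9 pericyte markers 8 were tested, 6 of which were called higher in CD34lo and 1, Kcnj8, higher in CD34hi. Their summed level was 168 to 251 CPM in CD34lo and 137 to 194 CPM in CD34hi. Abcc9 was the highest of them in every library (106 ± 43.7 and 123 ± 22.8 CPM, not called). Without Abcc9 the other 8 markers summed to 76.2 to 104 CPM in CD34lo and 37.4 to 50.4 CPM in CD34hi. The 6 called higher in CD34lo were Ndufa4l2 (10.6-fold), Notch3 (9.71-fold), Cox4i2 (7.61-fold), Cspg4 (5.95-fold), Mcam (5.41-fold) and Rgs5 (2.74-fold), a range that overlaps that of the contractile genes. Rgs5, a defining pericyte gene, was at 2.19 ± 0.719 and 0.801 ± 0.0236 CPM, Mcam at 6.85 ± 2.00 and 1.27 ± 0.445 CPM, and Kcnj8 at 13.3 ± 3.65 and 34.7 ± 6.37 CPM. None of the 9 was at 0 in all libraries, and Higd1b was at 0 in 1 CD34hi library. Their part in the contractile gene differences was not tested.

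Of 8 basal epithelial markers 7 were tested, 0 were called higher in CD34lo and 1, Oxtr, higher in CD34hi, and their sum was 10.8 to 12.9 CPM in CD34lo and 19.9 to 26.8 in CD34hi. Without Oxtr the other 7 summed to 10.4 to 12.8 CPM in CD34lo and 9.30 to 13.7 CPM in CD34hi, so that the difference in the sum came from that gene. The defining myoepithelial keratin Krt14 was at 1.51 ± 0.276 and 1.29 ± 0.306 CPM and Krt5 at 0.916 ± 0.154 and 1.20 ± 1.30 CPM, and Epcam at 4.82 ± 1.17 and 5.96 ± 1.46 CPM, with none of these called. The 7 luminal markers (Krt19 and Krt8 the highest) summed to 41.3 to 64.9 CPM in CD34lo and 70.7 to 98.7 in CD34hi. There was 1 call in each direction. Krt19 was higher in CD34hi (mean 8.03 CPM in CD34lo and 50.72 CPM in CD34hi), and Prlr was higher in CD34lo (13.03 and 4.39 CPM). The other 5 were not called, among them Krt8 (15.09 and 15.69 CPM), so that the higher sum in CD34hi came from Krt19. Of 12 skeletal muscle markers 7 were tested, 4 higher in CD34lo and 1 in CD34hi, and their sum was 27.4 to 50.5 CPM in CD34lo and 10.4 to 16.3 in CD34hi. Most of the CD34lo sum was Myh4 (27.6 ± 10.9 and 1.39 ± 0.820 CPM) and most of the CD34hi sum was Tnnt3 (3.57 ± 0.629 and 10.5 ± 2.28 CPM), and Ckm, the muscle creatine kinase, was at or near 0 (0.127 and 0.0224 CPM). The part of skeletal muscle RNA in the contractile gene differences was not tested.

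The 7 endothelial markers (Kdr and Pecam1 the highest) summed to 39.6 to 64.6 CPM in CD34lo and 54.1 to 99.3 in CD34hi, with 3 calls for CD34lo and 1, Kdr (6.06 ± 1.87 and 53.1 ± 18.6 CPM), for CD34hi. Without Kdr the other 6 summed to 35.0 to 59.2 CPM in CD34lo and 10.2 to 28.4 CPM in CD34hi, and all 6 had the higher mean in CD34lo. With the mouse pool as a block, 6 endothelial markers were called, with Vwf and Tie1 added (adjusted p = 0.0055 and 0.0079, edgeR). The part of these cells in the contractile gene differences was not tested. The 8 leukocyte markers (Cd3e, Cd68) summed to 9.19 to 12.4 and 17.6 to 20.1 CPM. Cd3e averaged 9.34 CPM over both populations. Of the 8, 5 were tested, with 2 called higher in CD34lo and 1 in CD34hi. Their median log2 fold change was −0.71, opposite in direction to the sum. The 4 adipocyte markers (Plin1, Adipoq) summed to 0.482 to 1.81 and 0.179 to 0.690 CPM, with 1 call for CD34lo. Fibroblast markers were abundant in all libraries, at 48386 to 54286 CPM in CD34lo and 28590 to 36049 CPM in CD34hi, with Col1a2 and Col1a1 the highest and 4 of 6 called higher in CD34lo and 1 in CD34hi.

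The genes most like Acta2 over the 6 libraries, among 8866 genes of sufficient level, were Id1 (Pearson r = 1.00 for log2 CPM), S100b (0.999) and Cacna1c (0.998). Those most like Myh11 were 4930402H24Rik (1.00), Map3k11 (0.999) and Echdc2 (0.999). With 6 libraries in 2 populations, the points of each correlation share their libraries and their split into populations, and the values are given as a description.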

How the data were processed

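RNA from CD34hi and CD34lo fibroblasts of 3 mouse pools was sequenced in TruSeq RNA libraries. The deposited values are raw counts per gene, made by the authors with Rsubread on GRCm38 (mm10); the annotation, strand setting and treatment of multimapping reads are not given in the sources used here. The deposited table also holds the gene length in bases, from which RPKM was computed. Symbols were matched for 25275 of 27179 genes.

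The analysis used edgeR 4.0.16 in R 4.3.3. The function filterByExpr by population kept 15219 genes, followed by TMM normalization, dispersion estimation (biological coefficient of variation 19.7%) and the quasi-likelihood test. Population was the only term of the model, so printed SE, intervals and p-values are unpaired unless a block is named. With the mouse pool as a block 6161 genes were called, against 5411 without it. P-values were adjusted (Benjamini-Hochberg, all tested genes) and called under a threshold of 0.05. SE was obtained from each fold change and its F statistic. Total counts per library set the counting error. The code was tested on simulated data. Alternatives used DESeq2 1.42.0, limma 3.58.1, other size factors and filters, and left out libraries or pools.

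The contractile genes and lists were chosen with earlier results of these data known. Named genes were the 10 contractile genes; per related list the 3 called genes with the largest absolute log2 fold change, with the core control genes; the 2 highest markers per cell type; the 3 genes most correlated with Acta2 and with Myh11; and Cd34. Rgs5, Mcam and the other called pericyte markers, Krt14, Krt5, Prlr, Ckm, Higd1b, Pcsk7 and Pdgfra were added after their values were seen. So were Vwf, Tie1 and the genes listed as untested or not called. The result of 1 marker list is not reported here. Same-numbered libraries were taken to come from the same mouse pool, since their labels share the number but do not name a pool. Their deviations from the population means correlated at r = 0.279, 0.0844 and 0.243. P-values measure the spread between pools of 2 mice.

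Promoter sequences are from RefSeq (GRCm38.p6), of which 7 of the 10 genes had an entry. No stretch of 75 bases of the longest coding transcript of any of the 10 genes (GENCODE M21) occurred in another gene; at 50 bases, 0.352% of Acta2 stretches and 0.4% of Myh11 stretches did.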

Additional observations from a re-analysis of the deposited data

How the results depend on the processing

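Of the 10 contractile genes, the 8 called higher in CD34lo stayed called with the same direction under each alternative that could test them; Actg2 and Lmod1 dropped out when at least 10 counts were required in every library, which left 6 calls. In the paired fit, with pools as a replicate block (edgeR), the same 8 were called, and Acta2 had a log2 fold change of −3.35; the block changed no call among the 10 and no other list's calls except 3 added paralogs and 2 added endothelial markers. Leaving out a library or a pool gave 8 to 9 contractile calls, 4 to 10 paralogs, 12 to 13 other smooth muscle genes, 7 to 12 control genes, 7 to 8 adhesion genes and 3468 to 5236 of all tested genes. The lowest of these, for paralogs, control genes and all genes, came without pool 1. Without pool 2 the counts were 9 paralogs, 8 control genes and 3633 genes in all. Without pool 3 they were 5, 12 and 4817, with the same number of libraries fitted. Cald1 was called without CD34lo replicate 2 and under no other alternative. Myl9, never called, changed sign with upper-quartile factors (−0.033) and ranged from −0.073 to 0.13 when libraries or pools were left out; the cause was not tested. Depth limits Actg2, Cnn1 and Lmod1, with at most 14 counts in each CD34hi library.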

Other observations

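Genes on the marker lists for other cells also differed between the populations. Oxtr, the oxytocin receptor through which myoepithelial cells contract, was at 0.295, 0.144 and 0.450 CPM in CD34lo and at 7.29, 10.6 and 13.5 CPM in CD34hi (log2 fold change 5.11, SE 0.38, adjusted p = 2.22e-05, edgeR). Notch3, a receptor of mural cells, was at 43.1 ± 13.3 CPM in CD34lo and 4.44 ± 1.55 CPM in CD34hi (−3.28, SE 0.31, adjusted p = 7.64e-05). The KATP channel subunit Kcnj8 was higher in CD34hi (1.39, SE 0.22, adjusted p = 0.0015), while Abcc9, which assembles with it, was not called (0.21, 95% interval −0.43 to 0.85). These genes were chosen after their values were seen.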
